A study of Mus musculus with 8 samples.

Results

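The Myc, Max and Mxd network was described here by the 10 genes Myc, Mycn, Mycl1, Max, Mxd1, Mxd3, Mxd4, Mxi1, Mnt and Mga, chosen by name and all present among the 21828 genes analysed. RNA was sequenced from 8 samples of retina of slc:ICR mice, an outbred stock, and each condition had 1 library. Whole retina was taken at E15 and at E18, while cells were sorted at P2, P5, and P8 by the surface enzyme Cd73 into a positive fraction (Cd73PC), which holds rods and their precursors, and a negative fraction (Cd73NC), which holds the other retinal cells and the remaining progenitors. Retinas were pooled before sorting. The whole retinas were not sorted, so age, composition, and the sorting itself cannot be told apart between E18 and P2. With 1 library per condition no single comparison of 2 libraries has a p-value. A gene is called higher or lower below when FPKM + 1 differed at least 1.5-fold. The study also used 1.5-fold, but states no added 1.

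The network is a set of transcription factors of the basic helix-loop-helix leucine zipper class that share 1 partner. Max pairs with a Myc protein to activate transcription at E-boxes, and with an Mxd protein, Mnt, or Mga to repress it at the same sites. Myc proteins are known for driving growth and division of progenitors, and Mycn in particular for the size of the retina and eye, while several Mxd proteins are known to appear as cells leave the cell cycle. The data measure RNA, and say nothing of protein levels or of which pairs form.

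The E-box was searched for in the RefSeq promoters, from 250 bases before to 50 bases after the gene start, because it is the site through which the network can act on its own genes. It reads the same on both strands. Of the 10 genes, 9 had at least 1 promoter, 11 promoters in all, several of them of Mxi1. Myc had no promoter entry and was searched for neither of the sequences below. CACGTG was present in the promoters of Max, Mnt, and Mxd4. It was present in 7.15% of all 32851 promoters of that length. The 3 sites are shown with 20 bases on each side, in the direction of transcription and with the E-box in capitals.
Max (NCBI37/mm9, chr12:78063213-78063258, minus strand): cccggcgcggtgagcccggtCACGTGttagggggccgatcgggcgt
Mnt (NCBI37/mm9, chr11:74644283-74644328, plus strand): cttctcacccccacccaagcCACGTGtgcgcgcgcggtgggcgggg
Mxd4 (NCBI37/mm9, chr5:34530553-34530598, minus strand): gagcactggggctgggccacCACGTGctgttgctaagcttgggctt
The E-box of Max begins 3 bases before the annotated gene start and so spans it, that of Mnt begins 123 bases before it, and that of Mxd4 219 bases before it. TAATCC, a sequence bound by the photoreceptor factor Crx, was found on either strand in 7.06% of all promoters. Among the 9 genes with a promoter it was found only in that of Mga. A match describes the letters of the promoter and is not evidence of binding.

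Depth relative to E18 whole retina, read from the steps in weakly expressed rows, ranged from 0.965 to 1.62. Absolute depth is unknown. Between 11153 and 12414 genes reached FPKM 1 in a library. Nt5e, which encodes Cd73, had an FPKM of 97.3 to 131 in Cd73PC and of 2.43 to 31.4 in Cd73NC. All 8 rod markers were higher in Cd73PC than in Cd73NC at P2, P5, and P8. Their summed FPKM was also 1314 in P5 Cd73NC and 1150 in P8 Cd73NC, so the negative fraction was not free of rod RNA. The 10 markers of cycling cells summed to 770, 939, and 1063 in E15, E18, and P2 Cd73NC. They summed to 323, 113, and 60.0 in Cd73PC at P2, P5, and P8, and to 241 and 70.7 in Cd73NC at P5 and P8. Most of each P8 sum was Pcna, at 51.9 in Cd73PC and 45.9 in Cd73NC. The median of these markers at P8 was 0.594 in Cd73PC and 2.36 in Cd73NC. Erythroid RNA, mainly of the globin gene Hba-a1, was higher at P8 than at P2 in both fractions, with a summed FPKM of 5170 against 106 in Cd73NC and of 2075 against 36.5 in Cd73PC. At P2, markers of microglia summed to 43.4 in the positive fraction and to 7.70 in the negative one, and all 6 were higher in the positive fraction. The part of these cells in the results below was not tested.

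Max and the Mxd gene Mxi1 were already higher in Cd73PC than in Cd73NC at P2, Mxi1 past the threshold at that stage only. Mycl1 and Mxd3 were already lower in Cd73PC at P2, and Mycn became lower between P2 and P5. At P2, 4 of the 10 genes were higher in Cd73PC than in Cd73NC (Max, Mxd1, Mxd4, and Mxi1) and 2 were lower (Mycl1 and Mxd3), where 39.5% of 12336 expressed genes passed the threshold, 14.5% higher and 25.0% lower. At P5, 1 was higher (Max) and 3 were lower (Mycn, Mycl1, and Mxd3), against 39.2% of 12231 genes, 12.3% higher and 27.0% lower. At P8, 1 was higher (Max) and 5 were lower (Myc, Mycn, Mycl1, Mxd3, and Mxd4), against 44.4% of 12365 genes, 13.0% higher and 31.3% lower. All 10 genes passed the filter of FPKM 1 at each stage. The 10 genes had a median log2 ratio of 0.29, -0.53, and -0.56 at the successive stages, while that of all expressed genes was -0.14, -0.18, and -0.23.

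The fractions of a stage came from the same retinas, so a difference shared by P2, P5, and P8 could be tested over the 6 sorted libraries with the stage as a block (limma on log2(FPKM + 1), Benjamini-Hochberg adjustment over 13057 genes, 2 residual degrees of freedom). Limma shares variance across genes, so its intervals and p-values rest on 5.46 degrees of freedom in total. The test was added after the data were seen. In this test 3 of the 10 genes differed at an adjusted p under 0.05, Max higher and Mycl1 and Mxd3 lower in Cd73PC, where 28.1% of all genes did, 8.90% higher and 19.2% lower. Max differed by 1.01 on the log2 scale (95% interval 0.67 to 1.34, adjusted p = 0.00693 by limma), with Cd73PC higher at 3 of 3 stages. Mycl1 differed by -2.17 (-2.63 to -1.71, adjusted p = 0.00309 by limma), lower at 3 of 3 stages. Mxd3 differed by -1.19 (-1.77 to -0.61, adjusted p = 0.0186 by limma), also lower at 3 of 3. Mycn, at -1.02 with an interval of -1.86 to -0.19, had an adjusted p of 0.0725 in limma, and Mxi1, at 0.73 with an interval of 0.15 to 1.32, one of 0.0689. The adjusted p of the other 5 genes in limma lay between 0.084 (Myc) and 0.555 (Mxd4). The stages stand in for replicates here, so a gene whose ratio changed with age has a wide interval. Without the P5 libraries only Mycl1 passed. Without the filter of FPKM 1 no gene of 21812 passed, while 5571 had an unadjusted p under 0.05 in limma. Mxd3 also did not pass without the stage block, after quantile normalization, or without the P2 libraries. With libraries scaled to the same upper quartile Mxi1 passed as well, higher in Cd73PC.

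**Figure D1:**
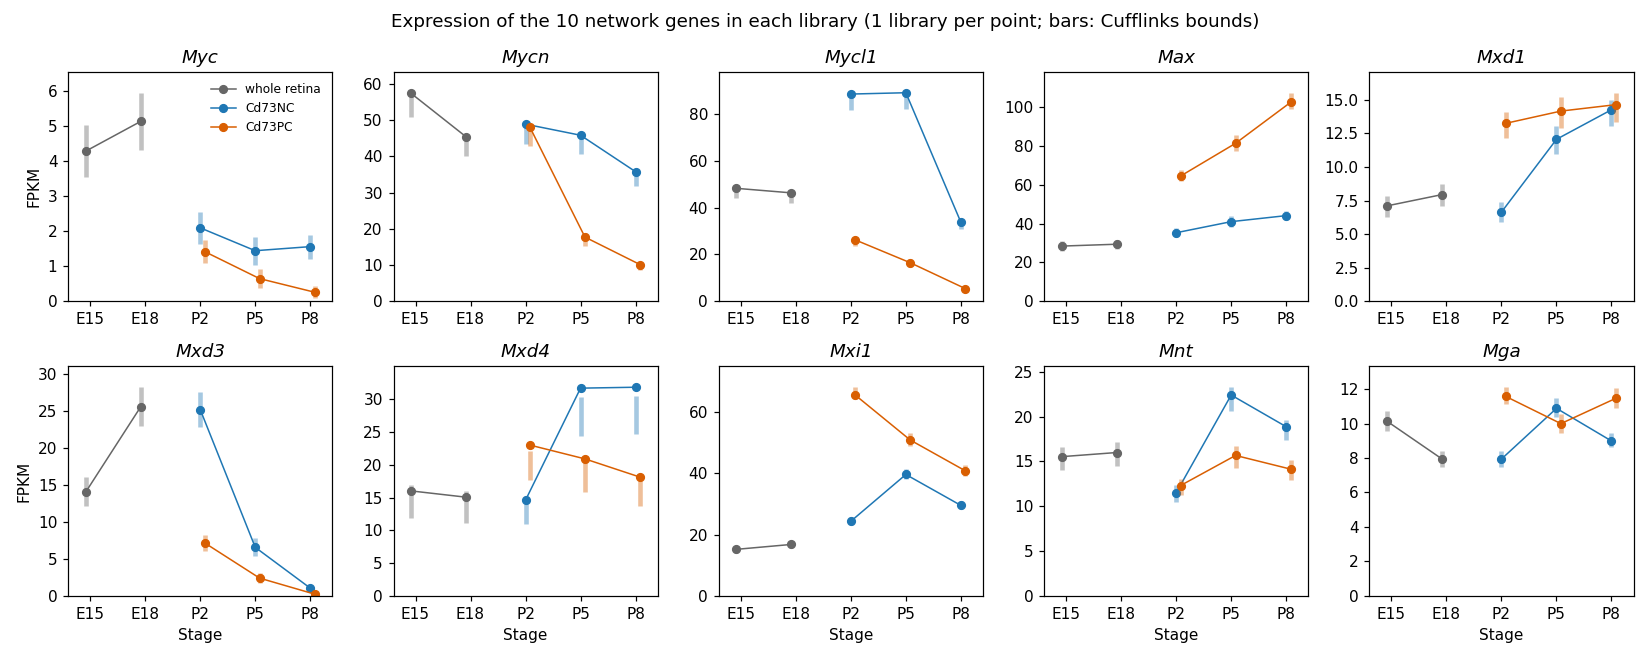
FPKM (y axis, from 0, own scale per gene) of the 10 genes at each stage (x axis) in whole retina (grey), Cd73NC (blue), and Cd73PC (orange). Each point is 1 library, and the bars span Cufflinks' confidence bounds, which describe the estimate within a library. Max stands at 102 in P8 Cd73PC, where Mycn and Mycl1 stand at 10.2 and 5.47.

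**Figure D2:**
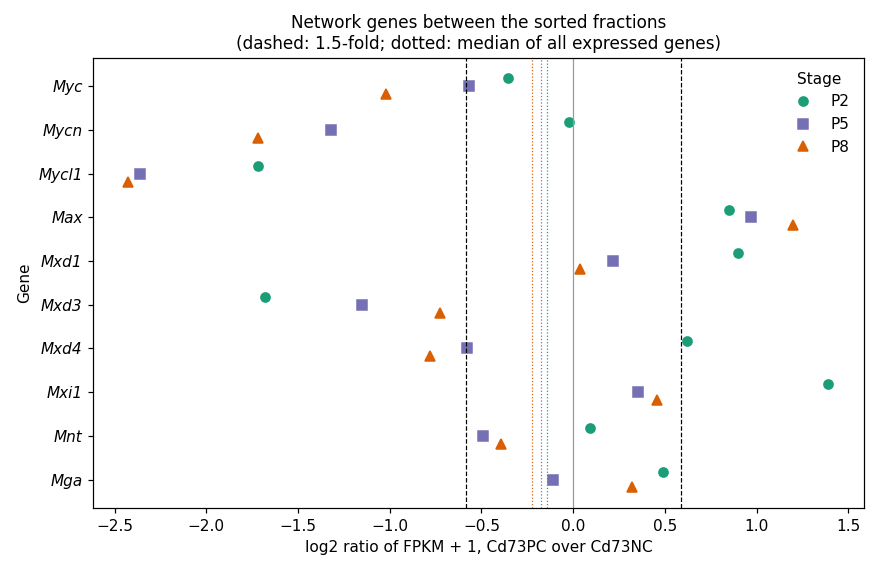
The log2 ratio of FPKM + 1, Cd73PC over Cd73NC (x axis), of each gene (y axis) at P2 (circles), P5 (squares), and P8 (triangles), with dashed lines at 1.5-fold and dotted lines at the median of all expressed genes. Max lies to the right of 1.5-fold at all 3 stages, Mycl1 and Mxd3 lie to the left at all 3, and Mxd4 crosses from right to left.

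Mycn, which sustains division of retinal progenitors, lies on chromosome 12 from 12942899 to 12948642 on the minus strand (NCBI37/mm9). Its FPKM in whole retina was 57.4 at E15 and 45.4 at E18, 48.9, 45.9, and 35.8 in Cd73NC at P2, P5, and P8, and 48.0, 17.7, and 10.2 in Cd73PC. The fractions were thus level at P2 and apart from P5 on, and the values from E18, P5 Cd73NC, and both P2 libraries had overlapping bounds, although in both P2 libraries the FPKM lay above its own upper bound (48.5 and 47.6). On the log2 scale of FPKM + 1, Cd73PC over Cd73NC gave a ratio of -0.03 at P2, then -1.32 at P5 and -1.72 at P8. Within Cd73PC, Mycn was 2.62-fold lower at P5 than at P2 on FPKM + 1, where 1.75% of genes had a lower ratio, and 1.68-fold lower again at P8. Its level in Cd73PC at P2, with bounds that overlapped those in Cd73NC, stood beside a summed FPKM of cycling markers of 323, against 1063 in Cd73NC.

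Mycl1, which encodes L-Myc, lies on chromosome 4 from 122673342 to 122679723 on the plus strand. In whole retina it had an FPKM of 48.2 at E15 and 46.2 at E18, 88.3, 88.9, and 33.7 in Cd73NC at P2, P5, and P8, and 26.2, 16.5, and 5.47 in Cd73PC. Of the members lower in Cd73PC it had the widest gap at each stage on FPKM + 1, with log2 ratios of -1.72, -2.36, and -2.42 in order of age. At P2 the FPKM as deposited was 3.37-fold lower, less than the 3.51-fold of Mxd3. Only 0.711% of expressed genes had a lower ratio at P5. Unlike Mycn, it was also the highest member in Cd73NC at P2 and P5, and its P5 level in Cd73NC was level with P2 (overlapping bounds, both FPKM above their own upper bounds) while cycling markers went from 1063 to 241. The genes with the most similar course over the 8 libraries were Mmp14, Ppic, and Cdk2ap1, with Pearson r of 0.992, 0.991, and 0.990 on log2(FPKM + 1). Mmp14, a membrane-bound matrix protease, had an FPKM of 74.9, 85.3, and 33.8 in Cd73NC and of 25.7, 13.4, and 5.17 in Cd73PC.

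Myc itself was the weakest of the 3 Myc genes in every library. It lies on chromosome 15 from 61816896 to 61821916 on the plus strand. Its FPKM in whole retina was 4.28 at E15 and 5.13 at E18, 2.096, 1.44, and 1.56 in Cd73NC at P2, P5, and P8, and 1.42, 0.649, and 0.262 in Cd73PC. All 6 sorted libraries were below both whole retinas. At these levels the added 1 sets the ratio: Myc at P8 was 2.03-fold lower in Cd73PC on FPKM + 1 and 5.97-fold lower on the FPKM as deposited. Of the summed FPKM of the 3 Myc genes, Myc made up between 1.06% (P5 Cd73NC) and 5.30% (E18 whole retina). Mycn and Mycl1 held the rest, with Mycl1 at 65.3% in P5 Cd73NC and Mycn at 64.0% in P8 Cd73PC.

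Max, the shared partner, lies on chromosome 12 from 78038256 to 78063235 on the minus strand. Whole retina gave an FPKM of 28.4 at E15 and 29.4 at E18, 35.3, 41.0, and 44.1 in Cd73NC at P2, P5, and P8, and 64.4, 81.2, and 102 in Cd73PC. Every Cd73PC library was above every other library, and the bounds of each Cd73PC library were apart from those of the next. Max was 1.80-fold, 1.96-fold, and 2.29-fold higher in Cd73PC than in Cd73NC at the 3 stages on FPKM + 1, more than 90.5%, 94.1%, and 94.4% of expressed genes. The steps within Cd73PC were each 1.26-fold and below the threshold. Ipmk, Sirpa, and Lrrc46 had the most similar course (r of 0.996, 0.994, and 0.994 over the 8 libraries, among 10859 genes with FPKM of at least 5 in 1 library). Ipmk, a kinase of inositol phosphates, had an FPKM of 33.0, 41.1, and 60.4 in Cd73PC and of 10.9, 15.5, and 16.7 in Cd73NC.

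The Mxd genes did not move as a family. Mxd3, which is known to be expressed in dividing progenitors, lies on chromosome 13 from 55426529 to 55431091 on the minus strand, and it went with the cycling cells. Its FPKM in whole retina was 14.1 at E15 and 25.6 at E18, 25.2, 6.56, and 1.05 in Cd73NC at P2, P5, and P8, and 7.16, 2.40, and 0.240 in Cd73PC. It thus spanned 107-fold between its highest and its lowest library, and its log2 range of 4.42 was wider than that of 97.0% of genes. Cd73PC was 3.21-fold lower than Cd73NC at P2, 2.22-fold at P5, and 1.65-fold at P8 on FPKM + 1, but 4.37-fold lower at P8 on the FPKM as deposited. Fewer cells of a type and less RNA per cell cannot be told apart in such bulk libraries. The nearest genes were 2010317E24Rik, Tk1, and Tcf19 (r of 0.998, 0.998, and 0.996). Tk1, thymidine kinase of the S phase, had an FPKM of 36.9 in E18, 42.2, 7.75, and 1.39 in Cd73NC, and 10.9, 2.64, and 0.224 in Cd73PC. The Mxd3 row overlaps Prelid1 on the opposite strand by 104 bases, and the reads carry no stated strand.

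Mxi1 was the Mxd gene with the highest level in Cd73PC. It lies on chromosome 19 from 53384996 to 53450300 on the plus strand, with 3 groups of transcription starts in the file. The FPKM in whole retina was 15.2 at E15 and 16.8 at E18, 24.4, 39.6, and 29.6 in Cd73NC at P2, P5, and P8, and 65.6, 50.9, and 40.9 in Cd73PC. It was the highest of the 10 genes in P2 Cd73PC, where the bounds overlapped those of Max, and it went down from there while Max went up. Cd73PC exceeded Cd73NC 2.62-fold at P2, 1.28-fold at P5, and 1.37-fold at P8, of which the P2 ratio passed the threshold and, with libraries scaled to the same upper quartile, the P8 ratio too (log2 ratio 0.62). Against E18 whole retina, P2 Cd73PC was 3.74-fold higher, above 97.8% of genes, and P2 Cd73NC was 1.43-fold higher. The closest course was that of Junb (r = 0.997), an immediate early gene, with an FPKM of 1.59 and 1.86 in the unsorted E15 and E18 retinas, 3.80, 8.20, and 4.66 in Cd73NC, and 17.3, 10.97, and 9.27 in Cd73PC. Immediate early genes are known to respond to cell dissociation, and its part in the level of Mxi1 was not tested. A predicted gene, Gm10197, overlaps the Mxi1 row by 201 bases on the opposite strand.

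Mxd1, associated in other tissues with terminal differentiation, lies on chromosome 6 from 86597039 to 86619153 on the minus strand. Its FPKM in whole retina was 7.11 at E15 and 7.94 at E18, 6.64, 12.1, and 14.3 in Cd73NC at P2, P5, and P8, and 13.2, 14.2, and 14.6 in Cd73PC. Cd73PC was at its later level from P2 on, and Cd73NC came level with it by P8. Cd73PC exceeded Cd73NC 1.86-fold at P2, 1.16-fold at P5, and 1.02-fold at P8.

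Mxd4, another member associated with differentiating cells, lies on chromosome 5 from 34519229 to 34530359 on the minus strand, and it was the gene that changed sides. In whole retina it had an FPKM of 16.0 at E15 and 15.0 at E18, 14.6, 31.7, and 31.8 in Cd73NC at P2, P5, and P8, and 23.0, 20.9, and 18.1 in Cd73PC. Cd73PC was 1.54-fold higher at P2, just past the threshold, and 1.72-fold lower at P8 on FPKM + 1. At P5 it was 1.49-fold lower, just short of the threshold. The turn came from Cd73NC, which was 2.09-fold higher at P5 than at P2, while the 3 Cd73PC libraries had overlapping bounds in order. The FPKM of Mxd4 lay above its own upper bound in 5 of the 6 sorted libraries, for example 23.0 against a bound of 22.0 in P2 Cd73PC. The annotated gene begins at 34516536, so the row leaves out part of its 3' end.

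Mnt and Mga, the broadly expressed repressors of the network, varied least. Mnt lies on chromosome 11 from 74644426 to 74659227 on the plus strand, and its FPKM in whole retina was 15.5 at E15 and 16.0 at E18, 11.5, 22.4, and 18.9 in Cd73NC, and 12.3, 15.7, and 14.1 in Cd73PC at P2, P5, and P8. It passed the threshold once, 1.87-fold higher in Cd73NC at P5 than at P2. Mga, a large protein that also has a T-box domain and belongs to the repressive complex PRC1.6, lies on chromosome 2 from 119722964 to 119795317 on the plus strand. Its FPKM in whole retina was 10.1 at E15 and 7.94 at E18, 7.94, 10.9, and 8.99 in Cd73NC, and 11.6, 9.99, and 11.5 in Cd73PC. Mga passed the threshold in none of the 10 comparisons, but after quantile normalization it passed in P2 Cd73PC over Cd73NC (log2 ratio 0.60) and over E18 (0.75), and 7.29% of genes had a narrower range over the 8 libraries. The genes closest in course to Mga were Myst3, Ubn2, and Usp9x (r of 0.97, 0.95, and 0.93), of which Myst3 encodes a histone acetyltransferase.

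Since FPKM is per length, levels of different genes could be summed. The Myc genes together had an FPKM in whole retina of 110 at E15 and 96.8 at E18, 139, 136, and 71.1 in Cd73NC at P2, P5, and P8, and 75.7, 34.9, and 15.9 in Cd73PC. The 4 Mxd genes summed to 52.4 and 65.4 in whole retina, 70.8, 89.9, and 76.7 in Cd73NC, and 109, 88.3, and 73.9 in Cd73PC. The Myc genes therefore made up 67.7% and 59.7% of the Myc and Mxd sum in whole retina, 66.3%, 60.2%, and 48.1% in Cd73NC, and 41.0%, 28.3%, and 17.7% in Cd73PC. All 3 Cd73PC libraries were below all 5 others. Max amounted to 0.259 times the Myc sum in E15 whole retina, 0.253, 0.301, and 0.620 times in Cd73NC, and 0.851, 2.33, and 6.43 times in Cd73PC. The 9 partners of Max together exceeded Max 6.61 times in E15 whole retina and 3.98 times in P8 Cd73NC, and 1.13 times in P8 Cd73PC. The Mxd sum also changed in kind: Mxd3 gave 35.5% of it in P2 Cd73NC and 1.37% in P8 Cd73NC, and Mxi1 gave 60.2% in P2 Cd73PC.

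**Figure D3:**
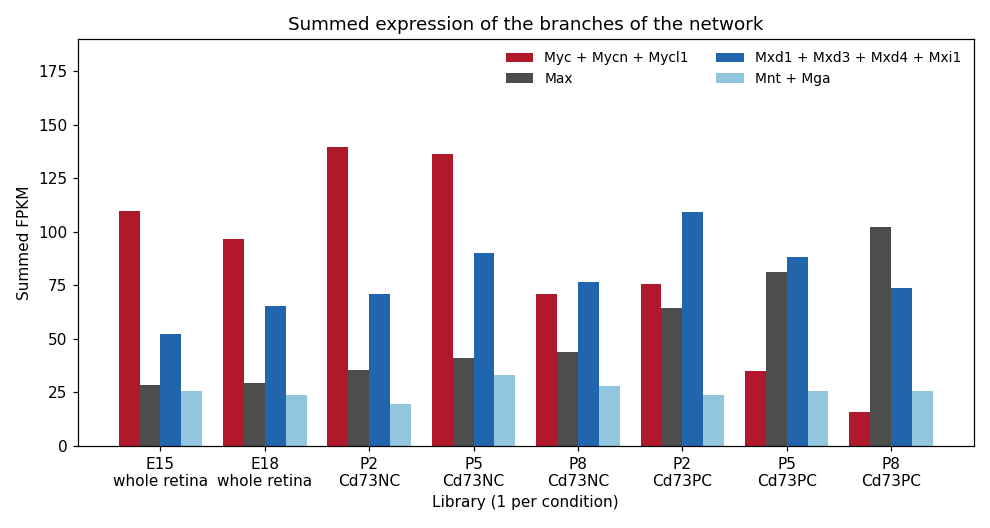
Summed FPKM (y axis, from 0) of the Myc genes (red), Max (grey), the Mxd genes (dark blue), and Mnt with Mga (light blue) in each of the 8 libraries (x axis, 1 library per condition). In Cd73PC the red bar is 75.7 at P2 and 15.9 at P8 while the grey bar is 64.4 and 102.

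Between E15 and E18 whole retina only Mxd3 passed the threshold, 1.77-fold higher at E18, where 11.1% of 12627 genes passed, 7.60% higher and 3.47% lower. From E18 to P2 the fractions are given side by side, since both are set against the same E18 library. In P2 Cd73PC, 3 of the 10 were higher than in E18 (Max, Mxd1, and Mxi1) and 3 were lower (Myc, Mycl1, and Mxd3), against 45.0% of 12735 genes (14.7% higher and 30.2% lower). In P2 Cd73NC, Mycl1 was higher and Myc lower, against 18.8% of 12555 genes (5.47% higher and 13.3% lower). Mycl1 thus was 1.74-fold lower in one fraction and 1.89-fold higher in the other, and in Cd73NC 98.5% of genes had a lower ratio.

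Within the fractions, the changes from P2 to P5 differed in kind, although Mxd3 was lower in both. In Cd73PC from P2 to P5, Mycn, Mycl1, and Mxd3 were lower and no member was higher, against 21.2% of 11910 genes (5.92% higher and 15.3% lower). The call of Mycl1 was lost with the same upper quartile (-0.52) and after quantile normalization (-0.49). Mycn, Mycl1, and Mxd3 were lower from P5 to P8, against 14.5% of 11635 genes (5.94% higher and 8.54% lower), with 9 of the 10 genes past the filter, as Myc was under FPKM 1 in both libraries. In Cd73NC from P2 to P5, 4 genes were higher, the repressors Mxd1, Mxd4, Mxi1, and Mnt, and Mxd3 was lower, against 29.5% of 12404 genes (13.1% higher and 16.3% lower). From P5 to P8 in Cd73NC, Mycl1 was 2.59-fold lower and Mxd3 3.69-fold lower, against 27.3% of 12549 genes (14.1% higher and 13.2% lower). These changes came with summed rod markers of 166 at P2 and 1314 at P5 in Cd73NC and with cycling markers of 1063 and 241. From P5 to P8 all 8 markers of bipolar cells were higher in Cd73NC, and their summed FPKM was 12.3, 87.0, and 1509 at P2, P5, and P8. All 8 were also higher in Cd73PC from P5 to P8, with sums of 38.7, 30.6, and 204 at P2, P5, and P8. The part of these cells was not tested.

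Genes that Myc is known to act on were counted next. Of 27 genes of ribosome biogenesis, 13 were lower in Cd73PC than in Cd73NC at P2 and none was higher, 7 were lower at P5, and 3 were lower and 1 higher at P8. Of all expressed genes, 25.0%, 27.0%, and 31.3% were lower at the 3 stages, so the count was near that share at P5 and under it at P8. The median log2 ratio of the list was -0.57, -0.44, and -0.14 at the 3 stages, against -0.14, -0.18, and -0.23 of all expressed genes. Npm1, the nucleolar phosphoprotein nucleophosmin, had an FPKM of 351, 177, and 174 in Cd73NC and of 196, 93.7, and 71.8 in Cd73PC. Pes1, a factor for maturation of the large ribosomal subunit, was the exception at P8, with 26.2 in Cd73NC and 49.7 in Cd73PC. The cycling markers were lower in Cd73PC at each stage, 10 of 10 at P2, 9 of 10 at P5, and 8 of the 9 that passed the filter at P8, with medians of -1.68, -1.36, and -0.88.

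Of 23 metabolic genes known as Myc targets, 16 were lower and 1 was higher in Cd73PC at P2, 10 were lower and 2 higher at P5, and 8 were lower and 3 higher at P8, where 31.3% of all genes were lower and 13.0% higher. The counts at P8 were near those shares. At P2, 25.0% of all genes were lower and 14.5% higher, and at P5, 27.0% and 12.3%. The median log2 ratios of the list were -0.73, -0.45, and -0.28, against -0.14, -0.18, and -0.23 of all expressed genes. Odc1, the first enzyme of polyamine synthesis, had an FPKM of 80.3, 47.2, and 21.9 in Cd73NC and of 36.4, 25.9, and 20.4 in Cd73PC. Shmt1, an enzyme of folate metabolism, had the lowest mean log2 ratio over the 3 stages, -1.41. Ldha, lactate dehydrogenase A, went the other way, with an FPKM of 615, 956, and 675 in Cd73NC and of 1683, 1822, and 1643 in Cd73PC. Npm1 and Ldha have near-identical copies elsewhere in the genome, so reads of 36 bases may be shared between them.

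**Figure D4:**
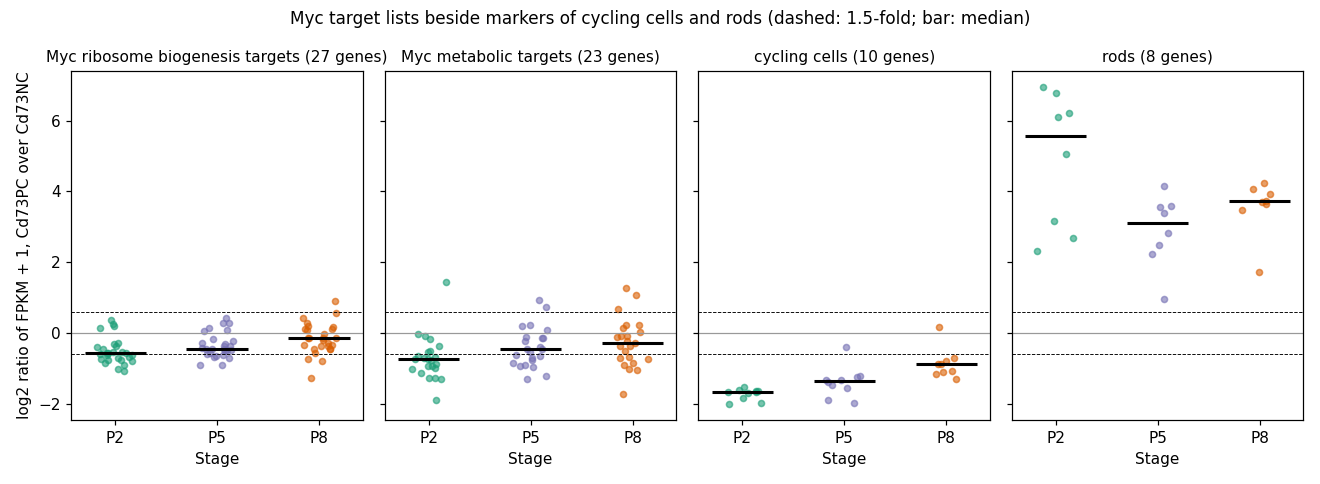
The log2 ratio of FPKM + 1, Cd73PC over Cd73NC (y axis), at P2, P5, and P8 (x axis) for the Myc target lists and for markers of cycling cells and rods. Each dot is a gene with FPKM of at least 1 in either library, black bars are medians, and dashed lines mark 1.5-fold. The medians of both target lists, -0.57 and -0.73 at P2, lie between 0 and that of the cycling markers, -1.68.

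The repressors of the network act through other proteins. Of 8 genes for the Sin3 and nuclear receptor corepressor complexes that Mxd proteins and Mnt recruit, 1 was higher and 1 lower in Cd73PC at P2, 1 higher and 2 lower at P5, and 2 lower at P8. Sin3b, a scaffold that binds Mxd proteins directly, had an FPKM of 93.6, 91.5, and 98.7 in Cd73NC and of 130, 146, and 120 in Cd73PC, and passed the threshold at P5. Sap30 was lower at all 3 stages, with 41.9, 21.9, and 12.4 in Cd73NC and 26.0, 11.1, and 5.32 in Cd73PC. Of 11 genes for PRC1.6, the complex of Mga, 4 were lower and 1 higher at P2, 2 lower and 2 higher at P5, and 1 lower at P8. At P2 and P5 the 2 lists together were near the 39.5% and 39.2% of all genes that passed. At P8 they were under the 44.4% of all genes. Tfdp2, a partner of E2f factors, was lower at each stage, with 32.1, 23.2, and 7.89 in Cd73NC and 11.9, 5.62, and 2.84 in Cd73PC.

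Mlx, Mlxip, and Mlxipl form a parallel branch, in which Mlx takes the place of Max and pairs with Mxd1, Mxd4, Mnt, or the glucose-sensing factors Mlxip and Mlxipl. Mlx had an FPKM in whole retina of 10.5 at E15 and 12.2 at E18, 11.4, 12.8, and 18.2 in Cd73NC, and 13.7, 14.2, and 13.96 in Cd73PC at P2, P5, and P8. In P8 Cd73PC Mlx thus lay far below Max, at 13.96 against 102. Mlxip was lower in Cd73PC at P5 and P8, with 7.05 and 4.94 in Cd73NC against 1.95 and 1.14. Mlxipl stayed below FPKM 0.5 in all libraries.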

How the data were processed

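The authors aligned 36-base single-end reads to NCBI37/mm9 with TopHat 2.0.8b and estimated expression with Cufflinks 2.1.1, and deposited for each library the FPKM (fragments per kilobase of transcript, scaled to the mapped fragments) of 23021 rows with lower and upper confidence bounds. Libraries were made from poly(A)-selected RNA. FPKM removes length and total depth and cannot show a change in total RNA per cell. Between 4 and 10 failed rows per library were taken as missing, 787 rows of small RNAs were left out by symbol, and rows of one symbol were summed, which left 21828 genes. Ratios were taken on FPKM + 1 among genes with FPKM of at least 1 in either library, and 1.5-fold or more was called. Single pairs of libraries have no test. Fractions were also compared over the 3 stages with limma 3.58.1 (R 4.3.3, mean-variance trend) with the stage as a block, a test added after the data were seen. The FPKM lay outside its own bounds in 1428 to 2170 rows per library, so bounds are only given beside single genes. For each member that reached FPKM 5, the 3 genes with the highest Pearson r over the 8 libraries were named from those that reached FPKM 5, and from each gene list the 2 with the highest and the 2 with the lowest mean ratio between fractions were candidates for naming. The nearest genes of Mnt are not reported here. Odc1 was named after its values were seen. The members and lists were chosen with earlier results of these data known. Positions are those of the rows, with 1 added to the start. Promoters are from RefSeq (GRCm38.p6), and each printed window matched NCBI37 exactly once on its chromosome. Alternatives were other pseudocounts, no filter, same upper quartile, quantile normalization, 2-fold, and non-overlapping bounds. Python 3.11.15, numpy 2.4.6, pandas 2.3.3, and matplotlib 3.10.9 were used, and the calling code was checked on simulated data.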

Additional observations from a re-analysis of the deposited data

Results flagged for a closer look

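For 2 genes the direction differed between conditions, past 1.5-fold on both sides. The log2 ratio of Mxd4, Cd73PC over Cd73NC, was 0.62 at P2, just past the threshold, and -0.78 at P8. Relative to E18 whole retina, Mycl1 had a log2 ratio of -0.80 in Cd73PC and of 0.92 in Cd73NC at P2, and both are set against the same E18 library. Neither difference was tested.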

How the results depend on the processing

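The number of members past the threshold in the 10 comparisons stayed within 1.5 times the reported number under 7 alternatives, except at a threshold of 2-fold, which left 3 between the fractions at P2 (in place of 6), 0 from E15 to E18 (in place of 1), 0 from E18 to P2 Cd73NC (in place of 2), and 2 in Cd73NC from P2 to P5 (in place of 5). These counts have no test. No called ratio changed sign under another pseudocount or scaling. Without the pseudocount Myc and Mxd4 joined the genes lower in Cd73PC at P5, and the log2 ratio of Mxd3 at P8 went from -0.72 to -2.13. Mxd3 at P8 was not called after quantile normalization, nor was Mycl1 in Cd73PC from P2 to P5 after either scaling. Quantile normalization moved the median log2 ratio of all genes at P8 from -0.23 to 0.05, at P5 from -0.18 to 0.03, and at P2 from -0.14 to -0.03. The share of the Myc genes in the Myc and Mxd sum in P8 Cd73PC was 16.9% to 19.3% under the alternatives. In the limma test with the stage as a block, added after the data were seen, 3 members differed between the fractions. It called 0 members without the filter, where 4 had an unadjusted p under 0.05 in limma, and 1 without the stage block (Max). It called 2 after quantile normalization (Max and Mycl1) and 4 with the same upper quartile, where Mxi1 was added. With 1 stage left out it called 1 to 4 (1 without P5, Mycl1). The 4 without P2 did not include Mxd3. Labels give no replicate numbers, so there was no replicate block. The absolute depth is unknown, and the ratios of Myc and Mxd3 at P8 rest on values near or under FPKM 1.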

Other observations

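Genes that set the stability and activity of Myc proteins were also counted between the fractions. Of 10 genes for Myc stability, 3 were lower in Cd73PC at P2 and none higher, 4 were lower at P5, and 1 was lower and 1 higher at P8. Of all expressed genes 25.0%, 27.0%, and 31.3% were lower at these stages, so the count at P2 was near that share. Fbxw7, the ubiquitin ligase subunit that marks Myc proteins for degradation, was lower at each stage, with an FPKM of 49.7, 28.5, and 37.4 in Cd73NC and of 15.2, 7.21, and 8.44 in Cd73PC. Skp2, another ligase subunit and a cell cycle gene, had 27.6, 7.66, and 3.09 in Cd73NC and 7.80, 3.28, and 2.43 in Cd73PC. Of 12 coactivators and partners, 3 were lower and 1 higher at P2, 1 lower at P5, and 2 lower at P8, at or under the same shares. Kat2a, a histone acetyltransferase recruited by Myc, was lower at all 3 stages, with 18.9, 17.7, and 17.9 in Cd73NC and 7.76, 6.97, and 6.85 in Cd73PC. Trrap, the scaffold of that complex, had 14.8, 25.6, and 20.9 in Cd73NC and 23.2, 21.8, and 23.9 in Cd73PC.

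The nearest genes of other members, by Pearson r over the same 8 libraries, were Ppp2r2a, Dusp1, and Spire1 for Mycn (0.99, 0.99, and 0.98), Fbxo18, 5830418K08Rik, and Rab34 for Myc (each 0.99), Atp6v0d1, Mmd2, and Sez6 for Mxd1 (each 0.99), and Bcan, Agt, and Parp6 for Mxd4 (0.96, 0.95, and 0.95). Dusp1, an immediate early phosphatase, had an FPKM of 14.4, 7.33, and 3.36 in Cd73PC at P2, P5, and P8 and of 16.9 in E18 whole retina. Junb was also lower at P8 than at P2 in Cd73PC (9.27 and 17.3), but stood at 1.86 in E18 whole retina. Dusp1 was named for its likeness to Mycn and Junb for its likeness to Mxi1.

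Among the 4 markers of the retinal pigment epithelium, Pmel, a melanosome gene, had an FPKM of 0.325 in P2 Cd73NC and 37.4 in P2 Cd73PC. Tyrp1 went the same way, with 0.270 and 13.3, while Rpe65 was listed at 0 in both. Mitf had 0.505 and 0.468. The part of these cells was not tested. Ganglion cell markers summed to 835 in E15 and 546 in E18 whole retina and to between 3.92 and 14.9 in the sorted libraries.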
